A study of Mus musculus with 4 samples.

Results

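Mitochondrial ribosomal protein genes were taken as every gene whose symbol is Mrpl or Mrps followed by a digit. They numbered 78 (49 Mrpl and 29 Mrps) of the 21822 gene units with counts. All 78 passed the filter on low counts, among 14283 units tested. RNA came from aggregates of mouse iMN-ESCs, embryonic stem cells that make, once doxycycline (Dox) is added, a fusion of the LIM-homeodomain factors Isl1 and Lhx3. Every library had the C57BL/6 background, carried the inducible line, spent 2 days as aggregates in stem cell medium with LIF and then 2 days in 0.5 µM all-trans retinoic acid. A last step of 2 to 3 days in retinoic acid was made either without Dox (2 libraries) or with 2 µg/mL Dox (2 libraries, biological duplicates in both groups). No library came from cells given Dox without the fusion, so the effects of the drug and of the fusion cannot be told apart.

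Mitochondria carry their own small genome, and the few proteins it encodes, all of them subunits of the oxidative phosphorylation complexes, are made by a ribosome of bacterial descent. The ribosomal RNA of that particle comes from the mitochondrial genome, but all of its proteins are encoded in the nucleus, made in the cytosol and imported. Many are relatives of bacterial ribosomal proteins, and the others were gained in the mitochondrial lineage. Tetracyclines such as doxycycline bind the small subunit of bacterial ribosomes, and they also slow translation in mitochondria. The comparison with and without Dox therefore shows whether transcripts for the proteins of a drug-exposed ribosome differed in amount.

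Part counts summed to between 24020832 and 53903936 per library. Levels are given in CPM (counts per 1000000 part counts, scaled by TMM). Isl1 measured 3.08 and 5.83 CPM in the no Dox libraries and 104 and 82.4 CPM in the Dox libraries. Lhx3 measured 0.404 and 0.286 CPM in the no Dox libraries and 125 and 108 CPM in the Dox libraries (adjusted p = 0.000279), so the labels matched the fusion in all 4 libraries. All 5 motor neuron markers tested were called higher. Isl1 and Lhx3 are among them and are parts of the induced fusion, so their rise was given by the design. The others were Mnx1, Chat and Slc18a3. The neuron markers Tubb3, Map2, Elavl3, Stmn2 and Dcx had log2 fold changes from -0.67 to -0.38 and 0 calls. Endoderm markers summed to 8057 to 9322 CPM, of which Lamb1 held a mean of 6721, and pluripotent cell markers to 5.39 to 10.4 CPM. Markers of several cell types were thus present in every library.

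Most of the family was present at moderate levels in every library. The mean over the 4 libraries ran from 0.292 to 79.8 CPM, with a median of 33.3 CPM against 27.7 CPM for all units tested. The transcripts were short, with a median exon length of 1284 bases against 3086 for all units. The family held 0.253% and 0.29% of scaled counts without Dox (replicates 1 and 2) and 0.24% and 0.256% with Dox. Levels of different genes are compared below per kb of annotated exon. The annotated length takes in every exon of every transcript of a gene, so a gene with rarely used long exons gets a low value per kb. A read that spans several parts of a gene may be counted in each, and values per kb were not adjusted for this.

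**Figure D1:**
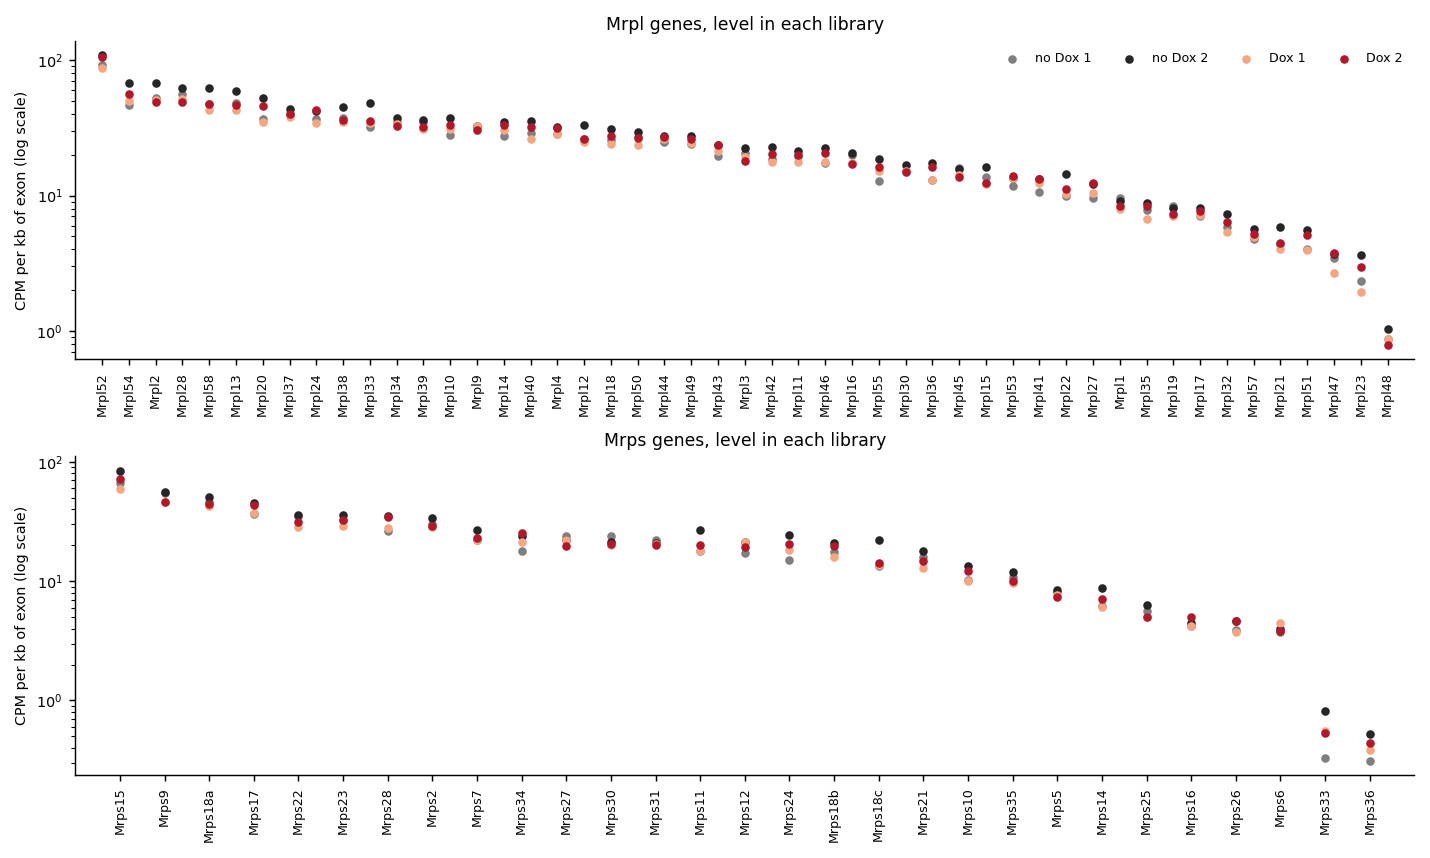
Level of each Mrpl gene (top) and Mrps gene (bottom) in each of the 4 libraries, in CPM per kb of exon on a log scale, ordered by the mean. Mrpl52 and Mrps15 lead, and Mrpl48, Mrps33 and Mrps36 lie lowest, at or near 1 CPM per kb or under it.

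Among Mrpl genes, Mrpl52 had the highest level per kb. It encodes a small protein without a bacterial relative, and it measured 91.7 and 109 CPM per kb in the no Dox libraries and 88.4 and 105 CPM per kb in the Dox libraries. Its lowest library lay above the highest library of the next gene. Mrpl54, another mitochondria-specific protein, followed with 46.7 and 67.6 CPM per kb without Dox and 50.2 and 56.8 with it. Mrpl2, a relative of bacterial L2, which lies near the peptidyl transferase centre, measured 52.9 and 67.6 CPM per kb in the no Dox libraries and 51.0 and 49.5 in the Dox libraries. Mrpl54 and Mrpl2 overlapped each other, and they overlapped Mrpl28 (48.9 to 62.0 CPM per kb), Mrpl58 (42.7 to 61.9) and Mrpl13 (43.2 to 59.1), so these 5 have no order beyond the spread of their libraries. Mrpl58 encodes a peptidyl-tRNA hydrolase that became a fixed part of the large subunit. The genes of the L7/L12 stalk base and stalk, Mrpl10 and Mrpl12, had mean levels of 32.5 and 27.7 CPM per kb.

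Among Mrps genes, Mrps15 led with 66.5 and 83.8 CPM per kb without Dox and 59.5 and 71.3 with it. Mrps9 measured 54.4 and 55.9 CPM per kb in the no Dox libraries and 46.4 and 46.4 in the Dox libraries, all below every library of Mrps15. Both are relatives of bacterial ribosomal proteins. Mrps18a came next (42.6 to 50.5 CPM per kb) and overlapped Mrps9. The symbols of this set hide 3 exceptions. Mrps18a and Mrps30 encode proteins that structures place on the large subunit, and Mrps36 encodes a protein now known as a subunit of the 2-oxoglutarate dehydrogenase complex. Mrps30, on the CPM scale, was among the most abundant members, with 79.2 and 70.3 CPM without Dox and 67.1 and 67.9 with it.

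The 3 paralogues that descend from bacterial S18 differed in level. In the classes used below, only Mrps18c counts as a relative of a bacterial protein, and Mrps18a and Mrps18b count as mitochondria-specific. Mrps18a had a mean of 45.8 CPM per kb, Mrps18b of 18.4 and Mrps18c of 15.8. Mrps18a lay above both others in every library. The other two overlapped, since Mrps18b ranged from 15.9 to 20.8 CPM per kb and Mrps18c from 13.5 to 22.0.

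At the lower end of the Mrpl genes stood Mrpl48 (0.787 to 1.03 CPM per kb), Mrpl23 (1.93 to 3.66) and Mrpl47 (2.69 to 3.76). Of the Mrps genes the lowest were Mrps36 (0.314 to 0.524 CPM per kb), Mrps33 (0.331 to 0.811) and Mrps6 (3.77 to 4.42). The Mrps6 value is not a level of that gene alone, because its unit in the files is shared with Slc5a3, a sodium and inositol cotransporter gene, and the unit of Mrpl53 is shared with Ccdc142. The other 76 members had a unit of their own. Mrps36 and Mrps33 rested on 42 and 87 part counts over all 4 libraries, and Mrpl23 on 268.

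Several of the low members have near-identical processed pseudogenes, copies of the spliced transcript elsewhere in the genome. The first 90 coding bases of the 3 members with the lowest mean CPM are shown with the matching bases of such a copy, from the GENCODE M21 transcripts of GRCm38, because reads from these stretches can align to both places. Capitals mark the base that differs.
Mrps36: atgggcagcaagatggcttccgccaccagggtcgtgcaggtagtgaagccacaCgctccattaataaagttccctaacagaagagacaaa
Mrps36-ps2: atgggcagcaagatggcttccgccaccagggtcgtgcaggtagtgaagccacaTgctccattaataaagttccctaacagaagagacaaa
Mrps33: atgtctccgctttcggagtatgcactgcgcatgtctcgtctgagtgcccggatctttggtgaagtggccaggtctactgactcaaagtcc
Gm5776: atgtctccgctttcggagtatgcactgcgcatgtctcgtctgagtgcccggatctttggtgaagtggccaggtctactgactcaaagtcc
Mrpl23: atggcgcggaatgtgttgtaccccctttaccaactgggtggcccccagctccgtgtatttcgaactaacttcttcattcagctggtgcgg
Mrpl23-ps1: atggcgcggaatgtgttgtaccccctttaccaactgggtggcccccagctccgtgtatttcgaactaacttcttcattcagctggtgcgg
Mrps36 is on chromosome 13 and differs from its copy on chromosome 7 by 1 of the 90 bases. Mrps33 on chromosome 6 and Gm5776 on chromosome 7 were identical over the 90 bases, and so were Mrpl23 on chromosome 7 and Mrpl23-ps1 on chromosome 2. Over the whole alignment, identity was 99% across 309 bases for Mrps36, 99.7% across 321 bases for Mrps33 and 100% across 540 bases for Mrpl23.

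For all 78 members, the share of the longest transcript matched to the unit that aligns to annotated pseudogenes at 95% identity or more over at least 50 bases was set beside the level. The 9 members with at least 40% of the transcript in such copies were Mrpl22 (86%), Mrpl23 (78%), Mrpl27 (72.2%), Mrps21 (65.2%), Mrpl42 (64.4%), Mrps10 (50%), Mrpl21 (49.9%), Mrpl41 (47.9%) and Mrps36 (44.1%). Mean CPM of these 9 had a median of 8.29 and a maximum of 13.6. The other 69 had a median of 36.6 CPM, and the 58 members with no such copy had a median of 39.2 and a minimum of 10.1 CPM. These values are not per kb, and the 9 were shorter, with a median exon length of 722 bases against 1302 for the 58. Per kb the 9 ranged from 0.416 (Mrps36) to 19.8 CPM (Mrpl42), and most of the 58 lay above that range. The 9 and the 58 still overlapped. Mrpl42 and Mrps21, the highest of the 9, stood at 19.8 and 15.3 CPM per kb. Mrpl47 and Mrpl17, among the lower genes without a copy, stood at 3.39 and 7.51. Across the 78 genes, mean CPM and that share had a Pearson correlation of -0.53 and a Spearman correlation of -0.62. This is a description across genes that share the same libraries, and genes are not independent replicates. How reads with several alignments were counted is not given in the sources used here, and the part of these copies in the low values was not tested. Just under the 40% split, Mrps18b had 38.6% in copies and 19.8 CPM, above the maximum of the 9. The levels of Mrps25 (34.1% in copies, 33.2 CPM) and Mrps5 (22.7%, 35.4 CPM) were near the median of the family, while Mrpl48 had 16.2% in copies and 4.17 CPM.

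**Figure D2:**
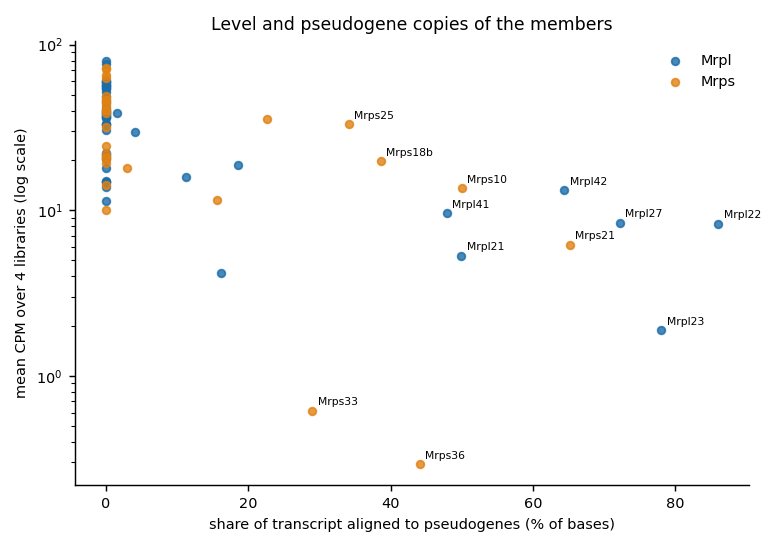
Mean CPM over the 4 libraries (log scale) against the share of each member's transcript that aligns to annotated pseudogenes, 1 point per gene. Genes with at least 40% in copies lie at or below 13.6 CPM, while the 58 genes with no copy lie at or above 10.1 CPM. Mrps18b, with 38.6% in copies, lies at 19.8 CPM. Values are not per kb, and genes with at least 40% in copies have a shorter median exon length (722 bases against 1302 for the 58).

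With Dox, the transcripts of this ribosome differed little in amount. Of the 78 members, 0 were called higher and 0 lower by the edgeR quasi-likelihood test with Benjamini-Hochberg adjustment at 0.05, where 1.23% of all units were called higher and 0.056% lower. At an unadjusted p under 0.05 the member counts were also 0 and 0, against 6.26% of all units higher and 4.02% lower. DESeq2 and limma-voom called 0 members in either direction as well. The smallest unadjusted p was 0.0539, for Mrps9 (adjusted p = 0.499). The 95% interval of the change lay within a 2-fold change in either direction for 75 of 78 members, and within 1.5-fold for 54. The exceptions at 2-fold were Mrpl23, Mrps33 and Mrps36, which had the fewest counts.

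Log2 fold changes ran from -0.35 (Mrps18c) to 0.15 (Mrps34). Their median was -0.14, against -0.01 for all units tested, and 65 of 78 members (83.3%) lay below 0, against 52.9% of all units. In 29 members (37.2%) both libraries with Dox lay below both without it, where 19.9% of all units did so. In 0 members did both lie above, where 18.9% of all units did so, and in 49 the groups overlapped. The median was -0.14 for Mrpl and -0.12 for Mrps genes, and -0.15 for the 45 relatives of bacterial proteins and -0.12 for the 32 mitochondria-specific proteins. With the proteins assigned by structure, the 51 large subunit genes had a median of -0.14 and the 26 small subunit genes, the side where tetracyclines bind, a median of -0.12.

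**Figure D3:**
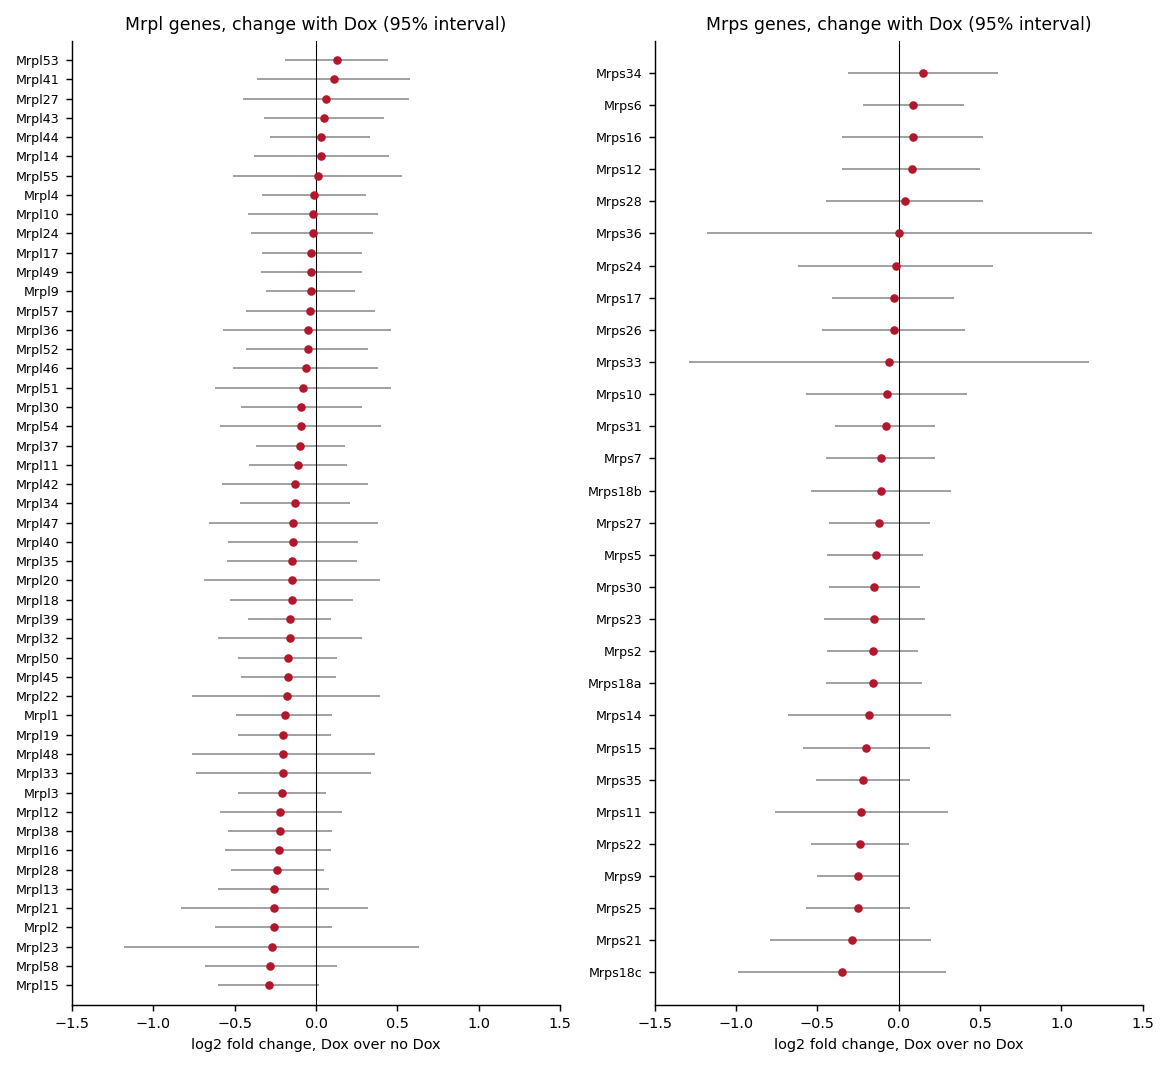
Log2 fold change of each member, Dox over no Dox, with its 95% interval from the edgeR fit, for Mrpl genes (left) and Mrps genes (right). All 78 intervals include 0, and those of Mrpl23, Mrps33 and Mrps36 are the widest.

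The size and sign of the median change depended on which library was left out. The family summed to 2528 and 2899 CPM in the no Dox libraries and 2402 and 2564 CPM in the Dox libraries, so no Dox replicate 2 stood above the other 3 and Dox replicate 2 above no Dox replicate 1. No Dox replicate 2 was the highest library for 63 of 78 members (80.8%), where it was the highest for 28.2% of all units, and it was the lowest for 0 members. Dox replicate 1 was the lowest library for 39 members. Without no Dox replicate 2 the median log2 fold change was 0.01 and 37 of 78 members lay below 0. That fit has a replicate 2 only in the Dox group, so the replicate difference described below enters its value. Without no Dox replicate 1 the median of the members was -0.23 and 75 members lay below 0, where the median of all units was 0.00. Leaving out Dox replicate 1 gave a median of -0.07, and leaving out Dox replicate 2 gave -0.17. These fits are uneven in replicate number too, so the replicate difference also enters the values -0.23, -0.07 and -0.17. In the fit with -0.23 the no Dox group is replicate 2 alone.

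The single pairs of libraries showed the same dependence. The median log2 ratio over members was -0.29 for Dox replicate 1 over no Dox replicate 2 and -0.17 for Dox replicate 2 over no Dox replicate 2. It was -0.06 for Dox replicate 1 over no Dox replicate 1 and 0.11 for Dox replicate 2 over no Dox replicate 1. Both pairs that share a replicate number had a negative median (-0.06 and -0.17), but the labels name no batch for that number. Of the 78 members, 75, 71, 52 and 31 were lower with Dox in these 4 pairs, in that order. A change in the abundance of a cell type and a change of RNA per cell cannot be told apart in these bulk samples. Dividing cell markers summed to 2519 and 2037 CPM in the no Dox libraries and 1961 and 1723 CPM in the Dox libraries, with 0 of 4 called. Neural progenitor markers summed to 531 and 419 CPM in the no Dox libraries and 343 and 235 CPM in the Dox libraries. All 4 had negative log2 fold changes (median -0.69), 3 of them at an unadjusted p under 0.05, and 0 were called. Of 3 fibroblast markers, Col1a1 and Col3a1 were called higher (adjusted p = 0.0175 and 0.004), and the list summed to 28.6 and 34 CPM in the no Dox libraries and 118 and 102 CPM in the Dox libraries. The part of these cell types in the member values was not tested.

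Values of the members with the most negative estimates show how the spread entered. Mrps18c, one of the S18 paralogues, measured 8.59 and 14 CPM in the no Dox libraries and 8.67 and 9.0 CPM in the Dox libraries. No Dox replicate 2 was alone in being high, and the other 3 libraries were close. The log2 fold change of -0.35 (SE 0.26, adjusted p = 0.778) was 0.04 without that library. Mrps21, a relative of bacterial S21, measured 6.46 and 7.22 CPM in the no Dox libraries and 5.19 and 5.95 CPM in the Dox libraries (change of -0.29 on the log2 scale, SE 0.20, adjusted p = 0.753). Both libraries with Dox were below both without it. Mrps25 measured 33.9 and 38.2 CPM in the no Dox libraries and 30.5 and 30.1 CPM in the Dox libraries, also without overlap (-0.25, SE 0.13, adjusted p = 0.62), and 73.9% of its 50-base stretches are also annotated in Nr2c2.

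In the large subunit, Mrpl15, a relative of bacterial L15, measured 58.0 and 68.0 CPM in the no Dox libraries and 51.0 and 52.1 CPM in the Dox libraries. The groups did not overlap, and the log2 fold change of -0.29 (SE 0.13, adjusted p = 0.522) did not pass the threshold. Mrpl58, the hydrolase, measured 35.8 and 46.4 CPM in the no Dox libraries and 32.0 and 35.7 CPM in the Dox libraries (-0.28, SE 0.16, adjusted p = 0.687), and Dox replicate 2 came within 0.1 CPM of no Dox replicate 1. Mrpl23, a relative of bacterial L23 at the exit of the peptide tunnel, measured 1.61 and 2.53 CPM in the no Dox libraries and 1.34 and 2.05 CPM in the Dox libraries. Its groups overlapped, and in both of them replicate 2 was the higher. Its 95% interval on the log2 scale, -1.18 to 0.63, spans a change of more than 2-fold in the direction of less RNA.

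Mrps9 had the smallest p of the family and an even spread. It measured 77.2 and 79.2 CPM in the no Dox libraries and 65.9 and 65.8 CPM in the Dox libraries. Replicates lay within 2 CPM of each other and the groups were apart. The log2 fold change was -0.25 (SE 0.10, 95% interval -0.50 to 0.01), and with 1 library left out it ranged from -0.26 to -0.23. Mrpl3, a relative of bacterial L3 and the member with the highest mean CPM, measured 82.3 and 89.1 CPM in the no Dox libraries and 76.2 and 71.7 CPM in the Dox libraries (-0.21, SE 0.11, adjusted p = 0.623), again without overlap.

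The most positive estimates were no larger than 0.15. Mrps34 measured 16.6 and 21.9 CPM in the no Dox libraries and 19.6 and 23.0 CPM in the Dox libraries (0.15, SE 0.19, adjusted p = 0.896), with overlap, and 52.4% of its 50-base stretches are also annotated in Mapk8ip3. Mrps16 measured 10.9 and 11.5 CPM in the no Dox libraries and 10.8 and 13.0 CPM in the Dox libraries (0.09, SE 0.18, adjusted p = 0.958). Mrpl41 measured 8.26 and 10.2 CPM in the no Dox libraries and 9.60 and 10.4 CPM in the Dox libraries (0.11, SE 0.19, adjusted p = 0.942), and Mrpl27, which reaches towards the peptidyl transferase centre in bacteria, measured 7.30, 9.18, 7.84 and 9.30 CPM in the same order (0.06, SE 0.21, adjusted p = 0.983). In all of these the 2 groups overlapped. The shared units of Mrpl53 (0.13, SE 0.13) and Mrps6 (0.09, SE 0.13) lay above 0 as well, and leaving both out left the median at -0.14.

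Replicate 2 was mostly the higher library in both groups. The log2 ratio of replicate 2 to replicate 1 had a median of 0.25 over the members without Dox and of 0.11 with Dox, against 0.01 and 0.00 over all units tested. Replicate 2 was the higher in 72 of 78 members without Dox and in 61 with Dox. It was higher in both groups for 58 members (74.4%), against 37.8% of all units, and lower in both for 3. When only the largest part of each gene was counted, the medians over the members were smaller, 0.07 without Dox and 0.02 with it, while the median log2 fold change with Dox was -0.11.

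The replicate ratio went with transcript length across all genes. Without Dox its median was 0.37 for units of up to 750 bases of exon and was lower in each longer class, down to -0.27 for units over 5000 bases. With Dox the same classes ran from 0.19 to -0.13. Of the members, the 47 of up to 1500 bases had medians of 0.31 without and 0.15 with Dox, where all units of that length had 0.28 and 0.14. The 31 longer members had 0.14 and 0.06, where all longer units had -0.03 and -0.02. Across the 78 members, the replicate ratio without Dox and the log2 length had a Pearson correlation of -0.44 and a Spearman correlation of -0.55. With Dox both correlations were weaker, at -0.24. The log2 fold change with Dox and the length had a Spearman correlation of -0.03. These are descriptions across genes that share the libraries. The labels give no extraction, batch or date that the replicate numbers could stand for, and RNA quality was not measured in the files.

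**Figure D4:**
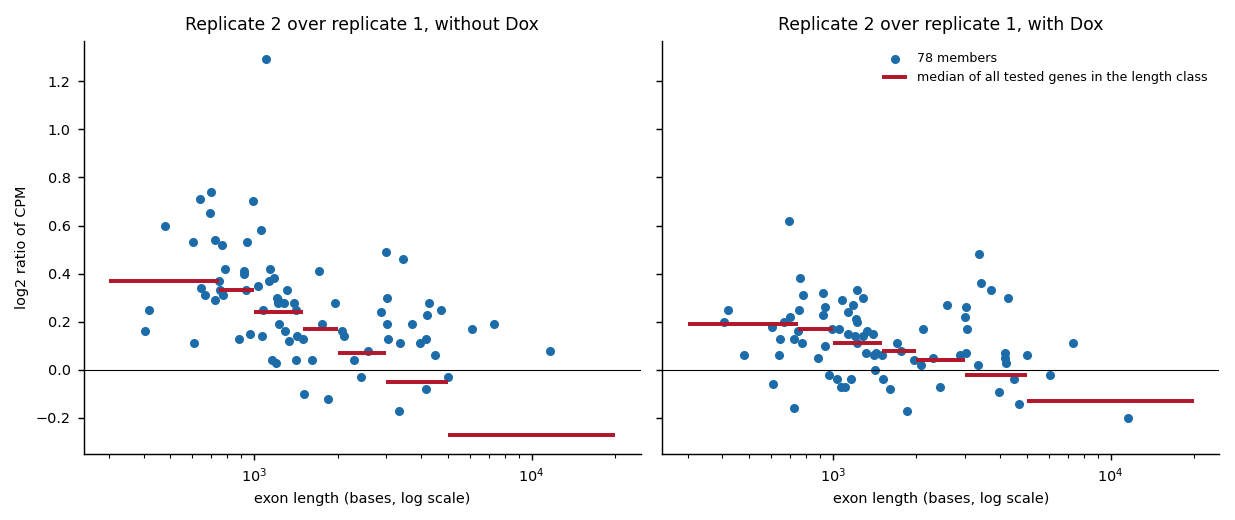
Log2 ratio of replicate 2 to replicate 1 against exon length (log scale), without Dox (left) and with Dox (right). Points are the 78 members and red lines are the medians of all tested units in 7 length classes, which run from 0.37 to -0.27 without Dox and from 0.19 to -0.13 with Dox as length grows.

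The ends of the replicate scale were held by few members. Mrps33 measured 0.367 and 0.898 CPM in the no Dox libraries and 0.615 and 0.586 CPM in the Dox libraries, a replicate ratio of 1.29 on the log2 scale without Dox and of -0.07 with it. These values rest on 87 part counts in all, and no difference with Dox was detectable at this depth. Mrps36 had ratios of 0.74 and 0.22. Mrpl20, a relative of bacterial L20 with 764 bases of exon, measured 28.3 and 40.4 CPM in the no Dox libraries and 26.9 and 34.9 CPM in the Dox libraries, so that both second replicates lay above both first ones. At the other end, Mrps27, a pentatricopeptide repeat protein with 1849 bases, measured 44.0 and 40.5 CPM in the no Dox libraries and 41.2 and 36.6 CPM in the Dox libraries, with replicate 2 the lower in both groups. Mrps30 had the most negative ratio of the family without Dox (-0.17) and a ratio of 0.02 with it. The ratios were -0.03 and -0.07 for Mrpl45 and 0.04 and -0.08 for Mrpl9. Mrpl45, which anchors the ribosome to the inner membrane in mammals, measured 38.7 and 38.0 CPM in the no Dox libraries and 34.8 and 33.2 CPM in the Dox libraries.

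Genes that work with this ribosome also had few calls. The 5 mitoribosomal proteins with other names (Dap3, Ptcd3, Chchd1, Aurkaip1 and Gadd45gip1) had a median log2 fold change of -0.13 and 0 calls. Dap3, a GTP-binding protein of the small subunit, measured 154 and 159 CPM in the no Dox libraries and 140 and 143 CPM in the Dox libraries (-0.15, SE 0.11, adjusted p = 0.777). Ptcd3, a pentatricopeptide repeat protein of the small subunit, measured 152 and 139 CPM in the no Dox libraries and 128 and 120 CPM in the Dox libraries (-0.23, SE 0.11, adjusted p = 0.594). Neither gene's groups overlapped. Of 25 assembly factors 0 were called (median -0.13), and among them C1qbp and Dhx30 had log2 fold changes of -0.23 and -0.01. Of 16 translation factors 0 were called (median -0.05). Lrpprc, which stabilises mitochondrial mRNA, and Oxa1l, which inserts new proteins into the inner membrane, stood at -0.04 and near 0 (adjusted p = 0.981 and 0.998).

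Of 20 genes for charging mitochondrial tRNA 0 were called (median -0.13), and 1 was lower at an unadjusted p under 0.05. That gene, Lars2, measured 174 and 80.1 CPM in the no Dox libraries and 62.2 and 73.5 CPM in the Dox libraries (change of -0.90 on the log2 scale, SE 0.34, adjusted p = 0.438), so no Dox replicate 1 alone was high. Without no Dox replicate 2 the change was -1.36 and Lars2 was called lower (adjusted p = 0.000744). Iars2 had a log2 fold change of 0.04. Of 14 genes for upkeep and transcription of the mitochondrial genome 0 were called (median -0.11), with Polg at -0.05 and Pnpt1 at -0.12. Of 11 mitochondrial chaperones and proteases 0 were called (median -0.08), with Hspa9 at -0.15 and Yme1l1 at -0.08. These lists read against the same background of 1.23% higher and 0.056% lower.

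Of 10 regulators of nuclear genes for mitochondria, 1 was called higher and 0 lower. Ppargc1a, a coactivator that raises the expression of mitochondrial genes in several tissues, rose, measuring 0.33 and 0.326 CPM in the no Dox libraries and 3.85 and 3.29 CPM in the Dox libraries (change of 3.43 on the log2 scale, SE 0.33, adjusted p = 0.00888). Both libraries with Dox lay far above both without it, although the level stayed low beside Gabpa (mean 125 CPM), Yy1 (127 CPM) and Nrf1 (61.9 CPM). Without any 1 library its log2 fold change ranged from 3.31 to 3.55. Mycn measured 134 and 127 CPM in the no Dox libraries and 97.0 and 80.1 CPM in the Dox libraries (-0.56, SE 0.13, adjusted p = 0.168). Nrf1, Gabpa, Gabpb1 and Yy1, whose products bind promoters of many mitochondrial genes, had log2 fold changes of -0.09, -0.19, -0.16 and -0.02.

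Slowed mitochondrial translation is known to raise genes of the integrated stress response in other cells. Of 16 such genes 14 were tested and 0 were called in either direction (median log2 fold change -0.06). Psat1, an enzyme of serine synthesis, measured 212 and 179 CPM in the no Dox libraries and 156 and 136 CPM in the Dox libraries (-0.42, SE 0.14, adjusted p = 0.351). Asns, which makes asparagine, measured 166 and 157 CPM in the no Dox libraries and 145 and 123 CPM in the Dox libraries (-0.27, SE 0.13, adjusted p = 0.572). Atf4, the central transcription factor, measured 133 and 159 CPM in the no Dox libraries and 127 and 168 CPM in the Dox libraries (0.02, SE 0.17, adjusted p = 0.997), with overlap. Fgf21 had 0 counts in every library, and Gdf15, at 0.0267 and 0.165 CPM with Dox, had too few counts to be tested.

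Cytosolic ribosomal protein genes, another set of short transcripts, were compared with the mitochondrial set. Of 87 listed, 85 were tested and 0 were called, with a median log2 fold change of -0.13 and 76 of 85 below 0 (89.4%). The list takes in paralogues such as Rpl7l1 and Rps27l. It also holds Rpl32l beside Rpl32, with means of 111 and 108 CPM, and whether these share reads was not tested. Their replicate ratios had medians of 0.36 without and 0.18 with Dox at a median exon length of 818 bases, and 64 of 85 were higher in replicate 2 of both groups. The median and the replicate direction were thus close to those of the mitochondrial set, and the difference between the sets was not tested. Levels in this set were spread wide. Rpl8 and Rpl4 stood at a mean of 1134 and 1064 CPM, while the median of the 85 was 6.64 CPM. Ribosomal protein genes of the cytosol have many processed pseudogenes, and their part in these values was not tested.

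Promoters were read from RefSeq for GRCm38.p6, as the 250 bases before and the 50 after each start. Of the 78 members 69 matched, with 75 promoters. The motifs searched on both strands were those of NRF1 (GCGCATGC), ETS factors such as GABPA (CCGGAAG), YY1 (AAGATGGC), E-box factors such as MYC (CACGTG) and NF-Y (CCAAT), none of which contains another. Of 6 member promoters with 3 different motifs, the most any held, the first 3 by symbol are shown, with the matches in capitals and the sequence in the direction of transcription. Overlapping matches run together in one stretch of capitals.
Mrpl32, chr13:14612988-14613287, minus strand: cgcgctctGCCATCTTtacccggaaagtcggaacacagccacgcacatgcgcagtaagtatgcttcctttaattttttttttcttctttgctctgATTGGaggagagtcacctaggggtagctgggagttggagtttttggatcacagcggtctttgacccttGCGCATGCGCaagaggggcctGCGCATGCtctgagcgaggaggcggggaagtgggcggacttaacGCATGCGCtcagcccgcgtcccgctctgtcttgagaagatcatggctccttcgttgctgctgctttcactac
Mrpl33, chr5:31613701-31614000, plus strand: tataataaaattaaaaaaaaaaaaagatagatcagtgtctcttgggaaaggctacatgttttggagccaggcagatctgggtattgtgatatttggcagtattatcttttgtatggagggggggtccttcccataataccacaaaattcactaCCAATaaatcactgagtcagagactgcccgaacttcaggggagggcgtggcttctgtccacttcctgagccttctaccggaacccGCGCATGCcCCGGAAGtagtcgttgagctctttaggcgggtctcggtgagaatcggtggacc
Mrpl36, chr13:73330759-73331058, plus strand: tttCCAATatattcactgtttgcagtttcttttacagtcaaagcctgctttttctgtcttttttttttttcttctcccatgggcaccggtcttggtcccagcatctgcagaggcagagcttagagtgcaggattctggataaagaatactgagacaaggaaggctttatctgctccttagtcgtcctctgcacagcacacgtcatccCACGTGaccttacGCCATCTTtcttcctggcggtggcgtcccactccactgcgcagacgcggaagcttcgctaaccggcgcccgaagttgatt
Mrpl32 encodes a protein that is matured by the inner membrane AAA protease before it joins the ribosome. Its promoter held NRF1, YY1 and NF-Y motifs, that of Mrpl33 held NRF1, ETS and NF-Y motifs, and that of Mrpl36 held YY1, E-box and NF-Y motifs.

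The ETS motif was in 26 of 75 member promoters (34.7%), against 15.8% of 14390 promoters of tested genes and 8.86% of all 32851 promoters. The YY1 motif was in 12 (16%), against 4.02% and 2.75%, and the NRF1 motif in 8 (10.7%), against 4.86% and 2.71%. The E-box was in 7 (9.33%), against 9.77% and 7.15%, and the NF-Y motif in 30 (40%), against 37.5% and 37.4%. At least 1 of the 5 motifs was in 73.3% of member promoters, against 56.9% of promoters of tested genes. Median GC content was 58.7% in member promoters and 60.7% in those of tested genes. Some genes have several promoters in the table, which share sequence. A match is a string of letters in this window and not a measured site.

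**Figure D5:**
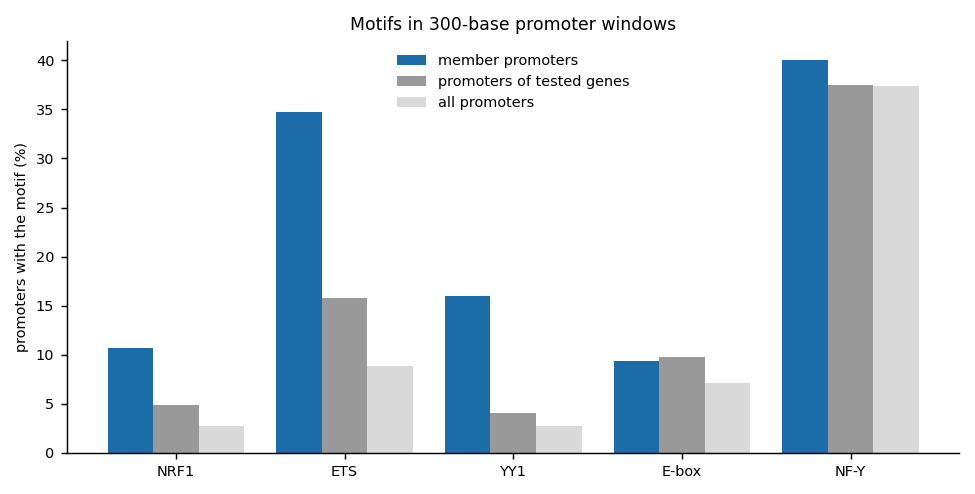
Share of promoter windows of 300 bases that hold each motif on either strand, for the 75 member promoters, for 14390 promoters of tested genes and for all 32851 promoters. The ETS, YY1 and NRF1 bars of the members are higher than the others, and the E-box and NF-Y bars are close to those of tested genes.

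Many members sit close to other genes. They lie on 17 chromosomes, with the most (11) on chromosome 11. Only opposite-strand protein-coding genes that start within 1000 bases upstream of a gene's start and face away were counted as neighbours. Of 78 members, 18 (23.1%) have one, against 6.78% of all protein-coding genes in GENCODE. Such neighbours include Fau, the gene of a cytosolic ribosomal protein, beside Mrpl49, and Sars2, a mitochondrial aminoacyl-tRNA enzyme, beside Mrps12. Mrps12, a relative of bacterial S12 in the decoding centre, measured 12.5 and 15.3 CPM in the no Dox libraries and 15.4 and 13.9 CPM in the Dox libraries, and Sars2 measured 29.5 and 39.0 CPM, and 28.7 and 29.6 CPM, in the same order. Another protein-coding gene overlaps 26 members (33.3%), against 21.5% of all. Both backgrounds take in genes that were not tested here, and the shares among tested genes were not computed. Mrpl46 and Mrps11 overlap each other. Mrpl46 measured 19.9 and 25.6 CPM in the no Dox libraries and 20.0 and 23.5 CPM in the Dox libraries. Mrps11 measured 19.0 and 28.3 CPM in the no Dox libraries and 18.9 and 21.4 CPM in the Dox libraries. Both genes were highest in no Dox replicate 2, as 63 of the 78 members (80.8%) were. Whether the counting used strand is not given in the sources used here, and reads of overlapping genes may not be separated.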

How the data were processed

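Total RNA was prepared for sequencing by Illumina's TruSeq method, per the labels' protocols. TopHat and mm9 are named in the submitters' processing notes. What counted the reads, on which annotation and with which strand setting, is not given in the sources used here. Each library has a table, deposited by the authors, of unnormalized counts for 208825 numbered parts of RefSeq genes. A read that spans parts may be counted in each. Reads outside genes made up 13.6% to 15.8% of the counts and stayed out, with the other entries that name no gene. Part counts summed to 28239859 and 24020832 (no Dox replicates 1 and 2) and to 37311037 and 53903936 (Dox replicates 1 and 2), which sets the precision of low genes.

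Parts were summed to 21822 gene units, and 97.1% of 27601 RefSeq identifiers matched a symbol. Exon lengths came from GENCODE M21, whose build is later than mm9. Counts were tested with edgeR 4.0.16 (R 4.3.3, robust quasi-likelihood F test, TMM scaling, filterByExpr, Benjamini-Hochberg over all 14283 units at 0.05). All adjusted p-values come from such fits. The biological coefficient of variation was 0.148. Tested on simulated data for this comparison (14164 genes run), it found 59 of the 98 genes given a 2-fold change (60.2%) and 95 of the 99 given a 4-fold change (96%), and made 13 false calls. Transcripts were aligned to annotated pseudogenes with blastn 2.17.0. Alternatives were DESeq2 1.42.0, limma-voom 3.58.1, other scalings and filters, the largest part of each gene, a length offset (loess span 0.4), the replicate number as a block, and leaving out each library.

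The members and the companion lists were chosen with earlier results of these data known. Members named with full values are those with the 3 highest and 3 lowest levels per kb, the 3 most positive and 3 most negative changes, and the 2 highest and 2 lowest replicate ratios per prefix, and 5 special cases of naming. Mrpl3, Mrpl28, Mrpl13, Mrpl10, Mrpl12, Mrpl46, Mrps11, Mrps12, Sars2, Mycn, Atf4, Nrf1, Gabpa, Gabpb1, Yy1, Fgf21 and Gdf15 were added after their values were seen. Otherwise lists name their called genes, or else the 2 with the highest mean CPM.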

Additional observations from a re-analysis of the deposited data

How the results depend on the processing

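The count of 0 members called higher held under every alternative run, and that of 0 called lower under all but 2. With the replicate number as a block 1 was called lower (Mrpl15, adjusted p = 0.0388), and with the block and a length offset 3 were (Mrps9, Mrpl3 and Mrpl15), where the same fits called 6.08% and 8.5% of all units lower. The samples share only a number: the labels name no batch for it, and there are only 2 pairs. Across all units the log2 ratios of replicate 2 to replicate 1 without and with Dox had a Pearson correlation of 0.49. What the replicate number stands for was not tested. The block moved the calls over all units from 175 higher and 8 lower to 1047 and 869, and DESeq2 called 398 and 113.

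The companion lists had 1 gene called higher (Ppargc1a), and 0 when units under a mean of 5 CPM were left out, which drops it. They had 0 called lower, but 4 with the block (Myc, Mycn, Asns and Psat1) and 7 with the block and length offset (also Ptcd3, C1qbp and Twnk), and 0 to 1 with a library left out. Medians of the members ranged with a library left out from -0.23 to 0.01 over all, and from -0.23 to 0.03 for Mrps genes, and from -0.14 to -0.10 under the other alternatives. A few named members changed sign in other fits: Mrpl52 had 0.02 with the largest part, with the length offset and with the block and length offset, Mrpl9 had 0.06 with the largest part, Mrps33 had 0.01 with the largest part, 0.003 with the length offset and 0.05 in limma-voom, and Mrps36 had -0.01 in DESeq2, -0.002 in limma-voom and -0.02 with the block. With a library left out the ranges that crossed 0 were -0.38 to 0.13 for Mrpl20, -0.61 to 0.08 for Mrpl23, -0.09 to 0.23 for Mrpl27, -0.03 to 0.27 for Mrpl41, -0.38 to 0.08 for Mrpl47, -0.17 to 0.08 for Mrpl52, -0.33 to 0.19 for Mrpl54, -0.07 to 0.03 for Mrpl9, -0.04 to 0.21 for Mrps16, -0.25 to 0.03 for Mrps18b, -0.66 to 0.04 for Mrps18c, -0.57 to 0.70 for Mrps33, -0.03 to 0.36 for Mrps34, -0.32 to 0.40 for Mrps36 and -0.01 to 0.21 for Mrps6. The cause of these changes was not tested. The alternative that leaves out the shared units of Mrps6 and Mrpl53 was chosen after seeing the data. Where a library was left out, the lone library of its group was assumed to vary like the other group. With 2 libraries a group, p-values rest on few degrees of freedom, and with 42 to 268 counts in Mrps36, Mrps33 and Mrpl23 the depth limits what can be said of them.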

Other observations

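In 8 members, at least 30% of the stretches of 50 bases were shared exactly with another annotated gene that is not a pseudogene. Mrpl53 shared 100% with Gm42688, Mrps25 shared 73.9% with Nr2c2, Mrps18b shared 52.9% with Gm16279 and Mrps34 shared 52.4% with Mapk8ip3. Mrpl24 shared 42.5% with Rrnad1, Mrpl19 shared 38.7% with Gcfc2, Mrps6 shared 32.2% with Gm49711 and Mrpl33 shared 30.3% with Gm43809. No value was adjusted for shared stretches.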
